A study of Danio rerio with 12 samples.

Results

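The question here was whether exposure to broflanilide at either concentration changed the messenger RNA of zebrafish larvae relative to solvent. The 7 exposed libraries were pooled and set against the 5 controls, which together are all 12 libraries of the study. The exposed libraries comprise 4 at 1 µg/L (low dose) and 3 at 10 µg/L (high dose), and the controls received DMSO, per the design text. Genes entered if both deposited tables list them and their mean count over the 12 libraries was at least 10. That held for 18786 of the 25004 genes in both tables (18188 of them protein-coding), out of 26255 genes in either table. RNA came from larvae with the tissue given only as larvae. The sources used here give no strain, larval age, exposure time, number of larvae per library or solvent share in the exposed groups. Nothing in the labels ties libraries to separate clutches, so all p-values rest on spread between samples that may be technical.

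Broflanilide is a meta-diamide insecticide. In insects it acts as a negative allosteric modulator of RDL, a chloride channel opened by the transmitter GABA, and so removes inhibition from the nervous system. The nearest vertebrate relatives of RDL are the subunits of GABA-A receptors, which assemble into chloride channels at inhibitory synapses and, as rho subunits, in the retina.

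Between 10721597 and 16380300 reads were counted per library. By principal components of log2 CPM (read counts scaled for library size, by TMM) the libraries that stood apart were control replicate 3 and low-dose replicate 4, at opposite ends of the first component (119 and -93.0), and control replicate 2 on the second (92.7). In low-dose replicate 4, the deepest library, 4.70% of counts were mitochondrial, the lowest share of the 12. Pooled, the exposed libraries held 6.30% ± 1.05 mitochondrial counts (SD, n = 7) against 7.08% ± 0.367 in controls (SD, n = 5), and their ranges overlapped. In an exact two-sided permutation test this difference had p = 0.153, and 0.382 after adjustment over the 5 library measures compared. Genes with at least 1 count numbered 20936 to 22036 in controls and 21384 to 22930 in exposed libraries (exact permutation p = 0.0644, adjusted 0.322). The smallest p that this design allows is 0.00253, and none of the 5 measures passed. As fits whole larvae, defining markers of many tissues were present in controls, with a median of 85.3 FPKM over 6 neuronal, 1277 FPKM over 5 skeletal muscle and 43.9 FPKM over 5 liver markers. Medians of the marker sets ran from 0.106 FPKM for yolk, with 1 of 3 markers measured, to 1324 FPKM for skin, with 4 of 5 measured.

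No gene passed the threshold for any exposure against control. By edgeR's quasi-likelihood test, 0 of 18786 genes (0%) had a Benjamini-Hochberg adjusted p under 0.05. An unadjusted p under 0.05 was reached by 572 genes (3.04%), of which 333 were higher (1.77%) and 239 lower (1.27%) in exposed larvae. If no gene differed, a share of 0.05 would reach it on average, and the observed share was below that. Genes varied together across libraries, so no conclusion was drawn from this share. DESeq2 and limma with sample quality weights each called 1 gene, rps15, which was lower, with 752 and 712 genes at an unadjusted p under 0.05. Leaving out low-dose replicate 4 and control replicates 2 and 3 together, edgeR also called rps15 alone. Control replicates 2 and 3 held the lowest rps15 levels of the controls. Leaving out control replicate 2 raised the number at an unadjusted p under 0.05 to 888.

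Most fold changes were small. The absolute log2 fold change was 0.18 at the 50th percentile of genes, 0.56 at the 90th and 1.22 at the 99th, and 383 genes (2.04%) differed by at least 1 on the log2 scale. The 95% interval of the log2 fold change lay wholly between -1 and 1 for 12107 genes (64.4%), so for these a 2-fold difference fell outside the interval. That share depended on depth. Among 4952 genes with a mean count of 10 to 50 the median interval reached 1.08 to either side and 13.2% lay within those bounds, whereas for the 2025 most counted genes it reached 0.36 and 94.2% did. In 34 genes (0.181%) every exposed library lay on 1 side of every control, 23 of them above (0.122%) and 11 below (0.0586%). If libraries were exchangeable between groups, such separation would have a probability of 0.00253 per gene. The observed share was below that. Genes varied together across libraries, however, with 27.6% of variance on the first principal component. The share under any 1 labelling can therefore lie well away from this probability, and no conclusion was drawn. In genes picked by p or by correlation, full or partial separation is partly a result of the picking and was not tested separately.

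**Figure D1:**
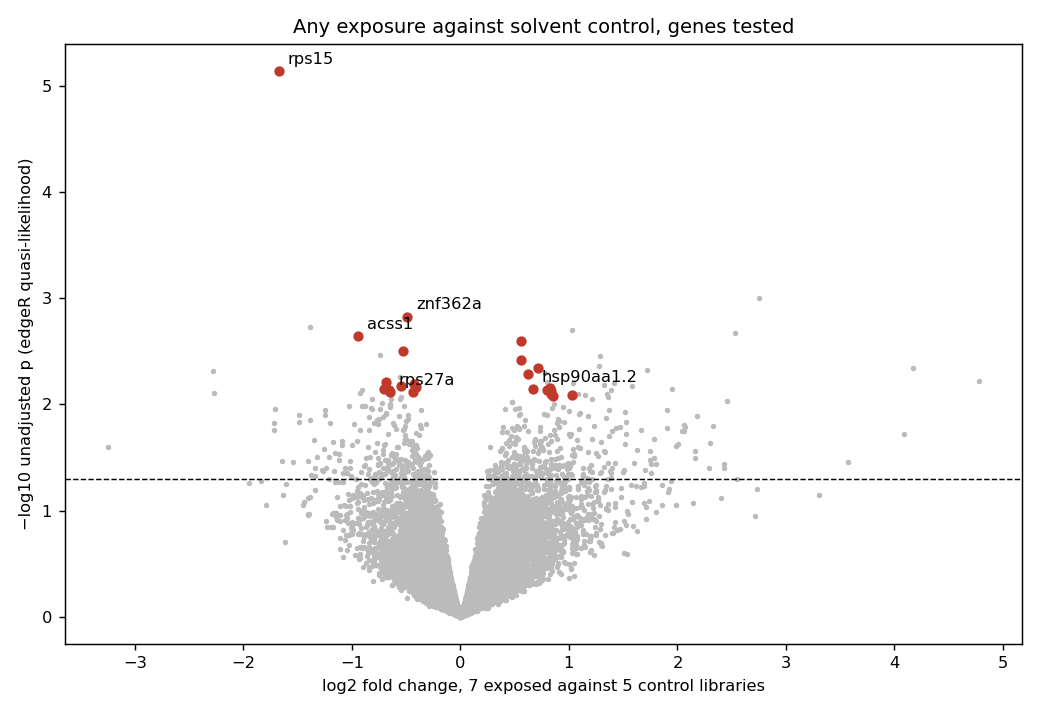
Each point is 1 of 18786 genes tested (4 are not drawn), with the log2 fold change of 7 exposed against 5 control libraries on the x axis and -log10 of the unadjusted edgeR p on the y axis. The dashed line marks an unadjusted p of 0.05, red points are the genes named by smallest p, and rps15 stands apart from all others at a log2 fold change of -1.67.

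First by p stood rps15, a gene for a small-subunit ribosomal protein (ENSDARG00000070849, chromosome 11, 5926850 to 5931622, plus strand, GRCz11). Its level was 36.01, 26.9, 24.8, 51.3 and 36.00 CPM in control replicates 1 to 5, 13.7, 16.5, 13.3 and 7.31 CPM in low-dose replicates 1 to 4 and 6.02, 8.10 and 11.9 CPM in high-dose replicates 1 to 3. All 7 exposed libraries lay below all 5 controls, and the lowest control was well above the highest exposed library. Exposed libraries averaged 10.98 ± 3.88 CPM (SD, n = 7), and controls 35.01 ± 10.4 CPM (SD, n = 5). This gave a log2 fold change of -1.67 (SE 0.25, 95% interval -2.21 to -1.13), with an edgeR adjusted p of 0.135. Adjusted p was 2.14e-05 by DESeq2, 0.0114 by limma with sample quality weights and 0.0428 by edgeR without the 3 libraries that stood apart. Those 3 were picked from these same data, and control replicates 2 and 3 held the lowest rps15 levels of the controls. Without the 3 libraries the log2 fold change was -1.82, so that lower p is not separate support. By edgeR the adjusted p was 0.807 with the replicate number as a block. With 1 library left out it lay between 0.0876 and 0.766, the highest without control replicate 4. When any 1 library was left out, the log2 fold change stayed between -1.80 and -1.50.

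Taken separately against the same 5 controls, rps15 was at -1.46 (log2, SE 0.29) in low-dose and at -2.01 (SE 0.33) in high-dose larvae, and these 2 values share the controls. High against low dose had an unadjusted edgeR p of 0.11 and an adjusted p of 0.953 for this gene. The authors' deposited table gives rps15 as having dropped by 1.45 (adjusted p = 0.0258) at the low and by 2.03 (adjusted p = 3.04e-06) at the high dose, on the log2 scale. Per gene length, rps15 was at 68.7 ± 20.7 FPKM in controls (SD, n = 5) and 21.6 ± 7.63 FPKM in exposed libraries (SD, n = 7). That made it the 7th lowest of 79 cytosolic ribosomal protein genes in controls, whose median was 1487 FPKM and whose highest value was 5399.8 FPKM.

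Of the remaining ribosomal protein genes few stood out. The 79 measured members, rps15 included, had a median log2 fold change of -0.15 against 0.01 over all genes. Of these 79 members 73 lay below 0 (48.6% of all genes). At an unadjusted p under 0.05, 1 was higher (1.77% of all genes) and 2 were lower (1.27%). Besides rps15, the 2nd lower member was rps27a, which encodes ubiquitin fused to a ribosomal protein, at -0.65 (SE 0.21), and the higher member was rps8b at 0.33 (SE 0.16). The level of rps27a was 165, 239, 269, 173 and 218 CPM in controls, 171, 175, 135 and 65.9 CPM at the low dose and 107, 149 and 146 CPM at the high dose. It was lowest in low-dose replicate 4, and 5 of 7 exposed libraries lay below every control. The large-subunit gene rpl39 was at -0.67 (SE 0.33), or -0.30 without control replicate 3, which at 206 CPM was far above the other controls. The list median was 0.05 without control replicate 3 and 0.03 without the 3 libraries that stood apart, so its sign turned.

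Next by p among lower genes with values given here came znf362a, a zinc finger gene, and acss1, which encodes a mitochondrial acetyl-CoA synthetase. The level of znf362a was 37.12, 41.7, 36.02, 40.6 and 33.7 CPM in controls, 25.97, 28.2, 26.6 and 22.6 CPM at the low dose and 31.8, 30.04 and 23.3 CPM at the high dose. Every exposed library lay below every control, although the highest exposed and the lowest control library were close. Its log2 fold change was -0.49 (SE 0.13). The level of acss1 was 5.61, 3.99, 7.10, 5.02 and 6.18 CPM in controls, 3.76, 3.70, 2.80 and 2.90 CPM at the low dose and 2.91, 2.003 and 2.18 CPM at the high dose. Again all 7 exposed libraries lay below all controls, with the high-dose libraries lowest. For acss1 this was a log2 fold change of -0.94 (SE 0.26), with -0.76 at the low and -1.23 at the high dose.

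The groups also did not overlap for katnbl1, which encodes a relative of the regulatory subunit of the microtubule-severing enzyme katanin, and for pwp2h, a component of the small-subunit processome that builds ribosomes. The level of katnbl1 was 21.8, 24.3, 30.6, 19.97 and 19.3 CPM in controls, 15.9, 19.2, 14.5 and 15.01 CPM at the low dose and 16.3, 15.8 and 15.5 CPM at the high dose. Low-dose replicate 2 was the highest exposed library and came within a small margin of control replicate 5. For pwp2h the values were 20.2, 24.8, 21.2, 23.99 and 29.7 CPM in controls, 15.7, 18.5, 18.9 and 20.2 CPM at the low dose and 15.9, 17.4 and 17.6 CPM at the high dose. Here low-dose replicate 4 and control replicate 1 nearly touched. Log2 fold changes were -0.53 (SE 0.15) for katnbl1 and -0.44 (SE 0.14) for pwp2h. By edgeR the adjusted p of these 2 genes, as of every gene tested other than rps15, was 0.998 or more.

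A further 6 genes among those with the smallest p were lower. The DNA crosslink repair nuclease gene dclre1a was at -0.68 (SE 0.22) and the complexin gene cplx4c, whose family regulates fusion of synaptic vesicles, was at -0.55 (SE 0.17). In both, 6 of 7 exposed libraries lay below every control. The chemokine gene cxcl14 was at -0.41 (SE 0.13), the zinc transporter gene slc39a13 at -0.70 (SE 0.23) and the Cdc42 exchange factor gene fgd4b at -0.65 (SE 0.21). The gene fam49a was at -0.43 (SE 0.13). In slc39a13, fgd4b and fam49a, 5 of 7 exposed libraries lay below every control, and in cxcl14 6 did.

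**Figure D2:**
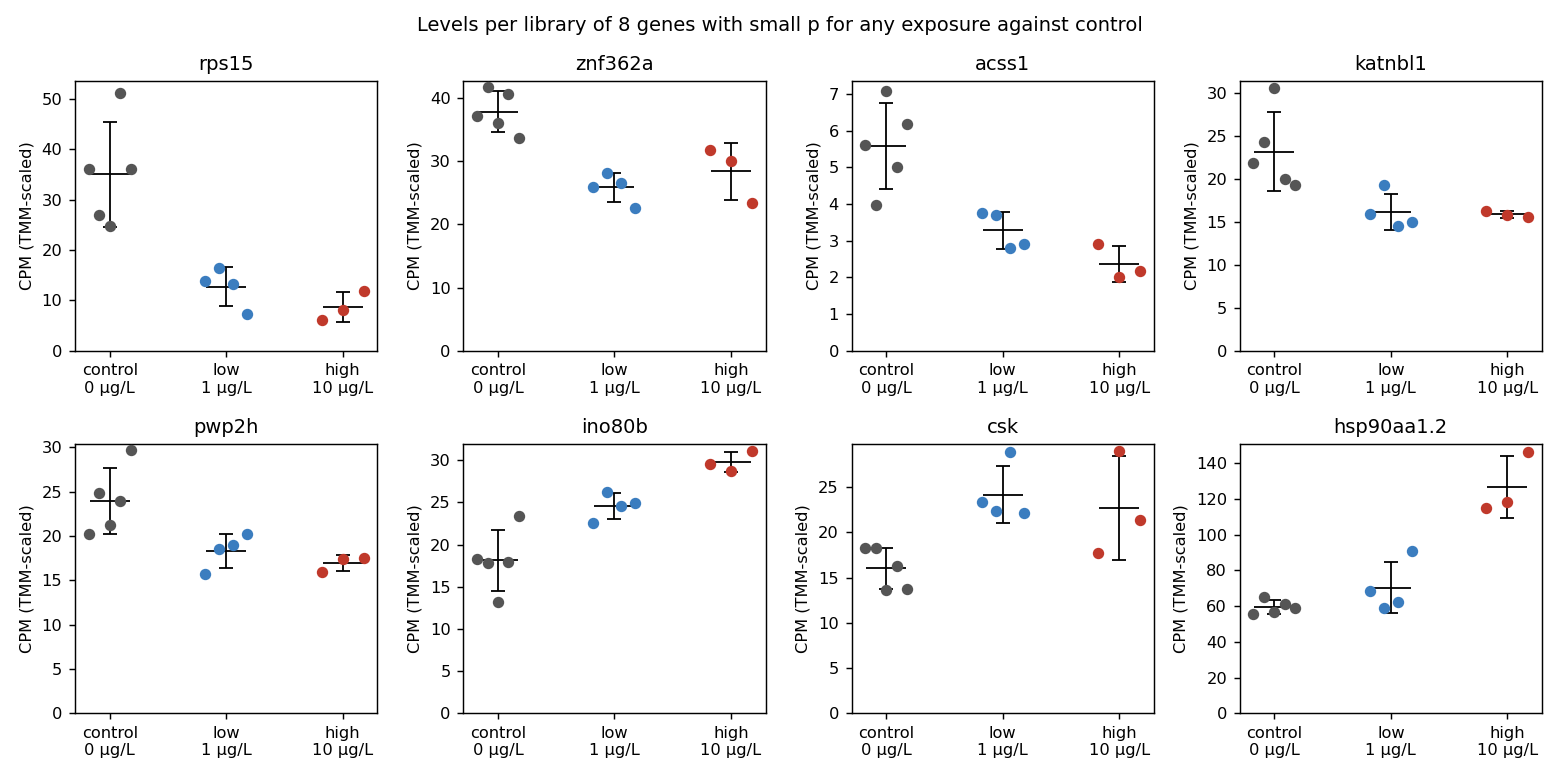
TMM-scaled CPM of 8 genes in each library, with 5 control, 4 low-dose and 3 high-dose libraries as points and the group mean and SD as bars, on linear axes from 0. The exposed libraries of rps15, znf362a, acss1, katnbl1 and pwp2h lie below every control, while hsp90aa1.2 is high mainly in the 3 high-dose libraries.

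Among higher genes with values given here the smallest p belonged to ino80b, a subunit gene of the INO80 chromatin remodelling complex. Its level was 18.3, 17.9, 13.3, 17.97 and 23.4 CPM in controls, 22.5, 26.2, 24.5 and 24.9 CPM at the low dose and 29.6, 28.7 and 31.1 CPM at the high dose. Control replicate 5 lay among the low-dose libraries, and 6 of 7 exposed libraries were above every control. The log2 fold change was 0.56 (SE 0.16), with 0.43 at the low and 0.71 at the high dose. The kinase gene csk, whose product holds Src family kinases inactive, was at 18.2, 18.2, 13.6, 16.2 and 13.7 CPM in controls, 23.3, 22.3, 28.8 and 22.2 CPM at the low dose and 17.7, 28.99 and 21.4 CPM at the high dose. High-dose replicate 1 was the 1 exposed library of csk within the control range. The log2 fold change of csk was 0.55 (SE 0.16).

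A few of these higher genes have known roles at synapses or in neurons. The gene lrrc4c, which encodes a netrin-G ligand at excitatory synapses, was at 12.1, 10.4, 7.41, 8.30 and 10.7 CPM in controls, 22.5, 11.8, 13.9 and 21.7 CPM at the low dose and 17.4, 12.3 and 13.3 CPM at the high dose. Low-dose replicate 2 was within the control range, and the other 6 exposed libraries were above it. Its log2 fold change was 0.72 (SE 0.22). The postsynaptic scaffold gene lzts3a was at 0.83 (SE 0.27), the microtubule-affinity kinase gene mark1 at 0.82 (SE 0.26) and mturn, a gene of neural differentiation, at 0.79 (SE 0.26). Exposed libraries above every control numbered 6 of 7 for lzts3a, 5 for mark1 and 4 for mturn. Whether such roles are more frequent among these genes than among all genes was not tested, and the complexin gene cplx4c was lower.

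The other higher genes included a pair linked to protein turnover. The gene rad23aa, which encodes a shuttle factor that carries ubiquitinated proteins to the proteasome, was at 0.63 (SE 0.19), with 6 of 7 exposed libraries above every control. The proteasome adaptor gene ECPAS was at 1.03 (SE 0.34), with 4 of 7 exposed libraries above every control. Its highest value was 30.6 CPM in low-dose replicate 4. Without that library the value for ECPAS was 0.75. The genes vopp1 and tmem8a were at 0.84 (SE 0.27) and 0.85 (SE 0.28), each with 6 of 7 exposed libraries above every control. By smallest p, among genes with a standard symbol and a mean count of at least 50, 24 were picked, 12 in each direction. Those other than rps15 did not pass the threshold for any exposure by edgeR, DESeq2 or limma.

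The doses lay apart in hsp90aa1.2, which encodes an inducible cytosolic Hsp90 chaperone (ENSDARG00000024746; chromosome 20, 53967350 to 53981626, minus strand). Its level was 55.6, 65.3, 56.5, 61.2 and 59.05 CPM in controls, 68.6, 58.9, 62.4 and 90.6 CPM at the low dose and 115, 118 and 146 CPM at the high dose. The 3 high-dose libraries were above all other libraries, and of the low-dose libraries replicates 1 and 4 were above every control. Its log2 fold change was 0.66 (SE 0.21) for any exposure, 0.24 at the low and 1.09 at the high dose. High dose against control gave an unadjusted edgeR p of 8.61e-06 and an adjusted p of 0.162. For that contrast the authors' deposited table gives 1.07 on the log2 scale (adjusted p = 7.52e-06). High against low dose gave an unadjusted edgeR p of 0.0002 and an adjusted p of 0.953. By limma with sample quality weights hsp90aa1.2 and zgc:122979 rose from the low to the high dose. No source used here says how reads that match more than 1 Hsp90 copy were counted.

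Across all genes, the high dose against the low dose had 0 of 18786 genes (0%) past the edgeR threshold, with 841 (4.48%) at an unadjusted p under 0.05. DESeq2 called 0 and limma 2. Each dose alone against the shared controls had 0 genes (0%) past the threshold in this fit of all 12 libraries, with 962 (5.12%) at an unadjusted p under 0.05 for the low and 401 (2.13%) for the high dose. The authors' deposited tables have 1 gene past an adjusted p of 0.05 at the low dose, rps15, and 4 at the high dose. Those p-values come from the authors' own processing and not from this fit. Besides rps15 and hsp90aa1.2 the high-dose genes were gar1 (authors' adjusted p = 0.00688) and si:ch211-236p5.3 (authors' adjusted p = 0.0172). Neither stood out when the doses were pooled. The snoRNP protein gene gar1 was at 2.58, 11.6, 1.67, 9.21 and 11.002 CPM in controls, 1.52, 10.3, 7.54 and 3.57 CPM at the low dose and 0.397, 0.958 and 0.971 CPM at the high dose. The low-dose libraries spanned much the same range as the controls and the high-dose libraries were lowest, with log2 fold changes of -1.003 pooled, -0.34 at the low and -3.23 at the high dose. The pooled value of gar1 was -1.55 without low-dose replicate 2. For si:ch211-236p5.3 the same values were -0.12, 0.36 and -1.23, of opposite sign at the 2 doses.

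GABA-A receptor subunit genes did not differ detectably between exposed and control larvae. None of the 20 measured subunits had an unadjusted p under 0.05, against 3.04% of all genes, and 14 lay above 0, where 51.4% of all genes did. Their median log2 fold change was 0.05 for any exposure, and 0.07 at each dose alone; by limma the pooled median was -0.02. Among 17 subunits with values given here, all 95% intervals held 0, and 10 lay wholly between -1 and 1. Leaving out 1 library moved the list median from -0.12 (without control replicate 3) to 0.29 (without control replicate 2). The score of the list, its mean log2 CPM minus the control mean, ran from -1.20 in control replicate 3 to 0.63 in control replicate 2, and all 7 exposed libraries, from -0.10 to 0.53, lay between those controls.

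The subunit with the smallest p was gabrd, the delta subunit of extrasynaptic receptors. Its level was 40.8, 44.1, 22.5, 34.4 and 36.4 CPM in controls, 45.1, 33.5, 41.6 and 75.9 CPM at the low dose and 49.96, 40.6 and 45.6 CPM at the high dose. Low-dose replicate 4 was highest and control replicate 3 lowest, with the other libraries overlapping. The log2 fold change of gabrd was 0.41 (95% interval -0.02 to 0.84), or 0.26 without low-dose replicate 4. Of the alpha subunits, which with beta subunits form the GABA binding site, gabra4 was at 0.64, gabra3 at 0.51, gabra2a at 0.42, gabra6b at 0.09, gabra5 at 0.03 and gabra6a at -0.25. The highest of these, gabra4, had an interval from -0.21 to 1.48. Without control replicate 3 the values of gabra4, gabra3 and gabra2a were 0.41, 0.23 and 0.14. The value of gabra3 was 1.01 without control replicate 1, and that of gabra2a 0.74 without control replicate 2. Beta subunits were at -0.29 (gabrb1) and 0.27 (gabrb4), and gabrg1, gabrp and gabrz were at 0.41, 0.44 and -0.35. Without control replicate 2 gabrb1 was at -0.12 and gabrg1 at 0.67, and without control replicate 3 gabrg1 was at 0.17, gabrb4 at 0.03 and gabrz at -0.60. Leaving out control replicate 1 put gabrb4 at 0.58, leaving out control replicate 5 put gabrz at -0.15 and leaving out high-dose replicate 3 put gabrp at -0.08. The rho subunits, which form the GABA-C type channels of the retina, were at 0.03 (gabrr1), 0.05 (gabrr2a), -0.23 (gabrr2b), 0.05 (gabrr3a) and 0.00 (gabrr3b). Of these gabrr2b ranged from -0.42 without control replicate 3 to -0.03 without control replicate 2, and the other 4 turned sign when single libraries were left out. Of the rho genes the most highly counted was gabrr1, at 31.7, 50.9, 13.9, 21.3 and 31.2 CPM in controls, 28.7, 21.6, 19.4 and 54.97 CPM at the low dose and 33.3, 27.3 and 27.19 CPM at the high dose. The exposed libraries of gabrr1 lay within the control range except low-dose replicate 4, which was just above it.

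**Figure D3:**
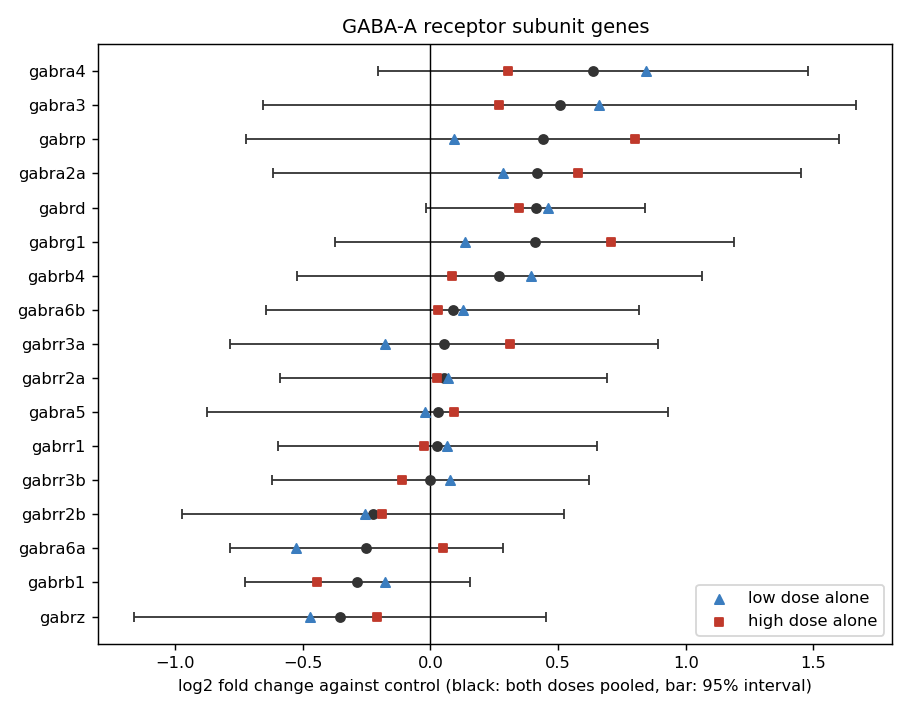
Log2 fold changes of 17 GABA-A receptor subunit genes against 5 controls, with both doses pooled as black points with their 95% interval, the low dose alone as blue triangles and the high dose alone as red squares. Every interval holds 0, from gabra4 at 0.64 to gabrz at -0.35.

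Of 16 measured genes that make, move and break down GABA, 0 had an unadjusted p under 0.05 (3.04% of all genes), 11 lay above 0 (51.4% of all genes) and the median was 0.09. With 1 library left out the median ran from -0.04 (without control replicate 3) to 0.20 (without control replicate 1), so its sign turned. The GABA uptake transporter gene slc6a11b was at 0.39 (SE 0.23), or 0.20 without control replicate 3, which held its lowest value of 15.6 CPM. The vesicular GABA transporter gene slc32a1 was at 202, 277, 213, 173 and 191 CPM in controls, 172, 195, 168 and 177 CPM at the low dose and 222, 151 and 178 CPM at the high dose. All but 3 exposed libraries lay within the control range, and those 3 were below it. For slc32a1 this was a log2 fold change of -0.23 (SE 0.14), or -0.11 without control replicate 2. The transaminase gene abat, which breaks GABA down, was at 0.17 (SE 0.13), and gabbr2, a subunit of the metabotropic GABA-B receptor, at 0.41 (SE 0.37). Without low-dose replicate 4 these were 0.10 and 0.21, and gabbr2 was at 0.17 without control replicate 3 and 0.64 without control replicate 5. Glycine receptor subunits (6 measured, median -0.08) and glutamate receptors (27 measured, median 0.01) also had 0 members at an unadjusted p under 0.05. Both medians turned sign, to 0.03 for glycine receptors without control replicate 2 and to -0.06 for glutamate receptors without control replicate 4.

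Immediate early genes, whose transcription can follow neuronal firing, had 0 of 30 measured members at an unadjusted p under 0.05 (3.04% of all genes). Of these members 16 lay above 0 (51.4% of all genes). Their median was 0.01, or -0.05 without control replicate 3. In RNA drawn from many tissues, these values cannot be tied to neurons. The medians of the list at each dose had opposite signs, at -0.23 for the low and 0.32 for the high dose. List scores ran from -0.65 to 0.25 in low-dose libraries and from 0.45 to 0.61 in high-dose libraries, while the controls themselves ran from -0.75 to 0.58. Among the members with the smallest p, fosaa was at 19.04, 16.7, 8.98, 22.6 and 13.997 CPM in controls, 20.3, 14.4, 14.3 and 36.00 CPM at the low dose and 20.9, 21.3 and 31.1 CPM at the high dose. Low-dose replicate 4 and high-dose replicate 3 were above every control and the rest overlapped. The log2 fold change of fosaa was 0.48 (SE 0.27), that of fosb 0.66 (SE 0.47), that of atf3 0.31 (SE 0.23) and that of nr4a3 0.23 (SE 0.19), all transcription factor genes. Without low-dose replicate 4 fosb was at 0.37 and atf3 at 0.13, fosb was at 0.42 without control replicate 3, and nr4a3 was at 0.13 without high-dose replicate 3.

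Over 36 measured pan-neuronal and presynaptic genes the median was -0.06, or 0.07 without the 3 libraries that stood apart. With 1 library left out it ran from -0.12 to -0.03. Of these genes 24 lay below 0 (48.6% of all genes) and 1 had an unadjusted p under 0.05 (3.04% of all genes). That member was sncga, a gamma-synuclein gene, at 1.92, 2.06, 4.18, 2.55 and 0.977 CPM in controls, 1.92, 1.95, 3.77 and 29.8 CPM at the low dose and 1.92, 14.5 and 1.78 CPM at the high dose. Low-dose replicate 4 and high-dose replicate 2 were far above the controls, and the other 5 exposed libraries lay within the control range. Exposed against control, sncga was at 1.79 on the log2 scale (SE 0.76), or 0.89 without low-dose replicate 4. The synapsin gene syn2b was at 0.19 (SE 0.15), the G protein subunit gene gng3 at -0.27 (SE 0.20) and stmn2b, a gene of growing axons, at -0.30 (SE 0.24). Without control replicate 3 these were 0.12, -0.15 and -0.17, without low-dose replicate 4 0.11, -0.17 and -0.17, and syn2b was at 0.31 without control replicate 2. Myelin and glia genes (18 measured) had a median of -0.05 (0.01 without control replicate 5). At an unadjusted p under 0.05, 1 member was higher (1.77% of all genes) and 2 were lower (1.27%).

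Phototransduction genes had 0 of 47 measured members at an unadjusted p under 0.05, a median of -0.09 and 30 members below 0, against 3.04% and 48.6% of all genes. The median turned to 0.08 without control replicate 2. By dose the medians were -0.28 at the low and 0.21 at the high dose. The green cone opsin gene opn1mw2 was at 30.3, 36.7, 25.8, 26.4 and 24.8 CPM in controls, 31.2, 51.8, 37.2 and 9.60 CPM at the low dose and 68.7, 42.1 and 67.8 CPM at the high dose. The high-dose libraries and low-dose replicates 2 and 3 were above every control, and low-dose replicate 4 was below every control, so the exposed libraries lay on both sides. Its pooled log2 fold change was 0.61 (SE 0.34). The guanylate cyclase activator genes guca1g and guca1c were at 0.63 (SE 0.31) and 0.39 (SE 0.23), and the rod arrestin gene saga was at -0.35 (SE 0.23). The value of saga was -0.12 without control replicate 2, and that of guca1c 0.25 without control replicate 3.

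Cytosolic heat shock chaperone genes had 36 of 46 measured members above 0 (51.4% of all genes), with 3 higher (1.77% of all genes) and 1 lower (1.27%) at an unadjusted p under 0.05. The median was 0.14, or 0.07 without control replicate 1 and 0.22 without control replicate 3. Beside hsp90aa1.2 the higher members were a pair of inducible Hsp70 genes. The level of hsp70l was 1.03, 1.57, 3.24, 0.912 and 2.60 CPM in controls, 1.52, 2.301, 2.61 and 5.13 CPM at the low dose and 3.97, 5.22 and 7.28 CPM at the high dose. The high-dose libraries and low-dose replicate 4 were above every control. Its log2 fold change was 1.101 (SE 0.45), with 0.64 at the low and 1.55 at the high dose. By contrast hsp70.3 was at 2.04 (SE 0.77), or 0.89 without low-dose replicate 4, which held 17.9 CPM where the other 6 exposed libraries held at most 3.07 CPM. The lower member, hspa14, had under 1 CPM in all exposed libraries and in 3 of 5 controls. Its value of -2.27 (SE 0.74) rests on few reads and on control replicates 1 and 2, at 2.95 and 4.27 CPM. No exposed library of hspa14 lay below every control. The value was -1.56 without control replicate 2 and -0.99 by limma. For Hsp70 copies, too, the counting of shared reads is not stated. List scores were above the control range of -0.20 to 0.12 in 5 of 7 exposed libraries. The score includes hsp90aa1.2, hsp70l and hsp70.3, so it is not separate from their values, and it was not tested.

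Proteasome subunit genes had 36 of 40 measured members above 0 (51.4% of all genes) and a median of 0.21, which became 0.08 when low-dose replicate 4, 0.07 when control replicate 2 and 0.39 when control replicate 3 was left out. The medians were 0.45 at the low and -0.13 at the high dose. The lid subunit gene psmd7 was the 1 member with an unadjusted p under 0.05, a share near the 3.04% of all genes, at 15.1, 9.25, 12.8, 17.4 and 12.4 CPM in controls, 17.2, 25.2, 25.03 and 36.7 CPM at the low dose and 9.99, 21.2 and 15.9 CPM at the high dose. Low-dose replicates 2 to 4 and high-dose replicate 2 were above every control. For psmd7 this was a log2 fold change of 0.69 (SE 0.27). The base subunit genes psmd1 and psmc1a were at 0.45 (SE 0.29) and 0.45 (SE 0.31), or 0.18 and 0.23 without low-dose replicate 4, and the immunoproteasome gene psmb10 was at -0.54 (SE 0.34). Without control replicate 4 psmb10 was at -0.31 and by limma at -0.20, and psmc1a was at 0.28 without high-dose replicate 3.

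Of 60 measured genes of DNA replication and the cell cycle, 50 lay below 0 (48.6% of all genes) and 3 were lower at an unadjusted p under 0.05 (1.27% of all genes), with a median of -0.21. These were the flap endonuclease gene fen1 at -0.61 (SE 0.23), the replication origin gene orc1 at -1.21 (SE 0.51) and the mitotic kinesin gene kif15 at -0.62 (SE 0.29). The level of fen1 was 11.7, 15.8, 23.6, 12.5 and 23.2 CPM in controls, 11.9, 11.995, 9.76 and 8.04 CPM at the low dose and 10.7, 10.5 and 16.5 CPM at the high dose. Control replicates 1, 2 and 4 lay among the exposed libraries, and 4 of 7 exposed libraries were below every control. For pcna, the sliding clamp gene, the value was -0.45 (SE 0.24). Medians were -0.53 at the low and 0.08 at the high dose, and the pooled median was -0.11 when low-dose replicate 4, -0.10 when control replicate 5 and -0.32 when high-dose replicate 3 was left out.

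Over the 13 protein-coding mitochondrial genes the median was -0.19, or -0.12 without low-dose replicate 4. Of these, 11 lay below 0 (48.6% of all genes) and 0 had an unadjusted p under 0.05 (3.04% of all genes). The complex I gene mt-nd1 was at 2059, 2189, 3092, 2340.4 and 2391 CPM in controls, 1508, 2403, 1905 and 1234 CPM at the low dose and 2289, 1789 and 2632 CPM at the high dose. Low-dose replicates 1 and 4 were lowest, while control replicate 3 was highest. Log2 fold changes were -0.30 (SE 0.20) for mt-nd1, -0.38 (SE 0.22) for mt-nd3, -0.26 (SE 0.19) for mt-nd6 and -0.34 (SE 0.24) for the cytochrome oxidase gene mt-co2. Without control replicate 3 those of mt-nd1, mt-nd3 and mt-co2 were -0.19, -0.20 and -0.16, and without low-dose replicate 4 mt-nd6 was at -0.17. Nuclear genes of oxidative phosphorylation (75 measured) had a median of -0.11, which was 0.09 without control replicate 3 and 0.01 by limma.

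Among the 5 controls the SD of the list score was highest for lens genes, at 1.04, and was 0.80 for skeletal muscle, 0.70 for liver and 0.68 for pancreas genes, against 0.72 for GABA-A receptor subunits and 0.19 for heart muscle genes. In RNA drawn from many tissues, fewer cells of a tissue and less RNA per cell cannot be told apart. Lens genes, mostly crystallins, had 42 of 44 measured members above 0 (51.4% of all genes) and a median of 0.52, which became -0.26 when low-dose replicate 4 and 1.08 when control replicate 2 was left out. The lens medians had opposite signs by dose, at 0.94 for the low and -0.54 for the high dose. At an unadjusted p under 0.05, 1 lens member was higher (1.77% of all genes) and 0 were lower (1.27%). The level of crybgx, a member of the beta-gamma crystallin family, was 5.17, 5.70, 0.835, 4.01 and 4.95 CPM in controls, 9.27, 8.65, 1.26 and 107 CPM at the low dose and 7.94, 3.66 and 5.34 CPM at the high dose. Low-dose replicate 4 alone was far above all other libraries, and without it the log2 fold change of 2.298 (SE 0.91) became 0.54. For the alpha crystallin gene cryaa the values were 1.18 (SE 0.59) and 0.39, for crygmx 1.01 (SE 0.58) and 0.20, and for crygm2d12 1.42 (SE 0.89) and -0.32. For crystallin copies the counting of shared reads is not stated. The lens score was 2.67 in low-dose replicate 4 but also 1.48 in control replicate 2 and -1.21 in control replicate 1.

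Digestive enzyme genes of the exocrine pancreas had 16 of 21 measured members above 0 (51.4% of all genes), a median of 0.46 and 3 members higher at an unadjusted p under 0.05 (1.77% of all genes). These were the phospholipase gene pla2g1b at 0.90 (SE 0.38), the amylase gene amy2a at 0.83 (SE 0.36) and the lipase gene cel.1 at 0.66 (SE 0.29). The level of amy2a was 36.2, 36.7, 109, 58.01 and 73.3 CPM in controls, 103, 92.3, 106 and 248 CPM at the low dose and 46.5, 88.2 and 97.1 CPM at the high dose. Control replicate 3 was above all exposed libraries except low-dose replicate 4, without which the log2 fold change of amy2a was 0.51 and the list median 0.25. Without control replicate 3 the list median was 0.77 and cel.1 was at 1.02. The carboxypeptidase gene cpb1 was at 1.36 (SE 0.64), or 0.41 when low-dose replicate 4 was left out.

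Plasma protein genes of the liver had 42 of 52 measured members above 0 (51.4% of all genes) and a median of 0.35, with 0 at an unadjusted p under 0.05 (3.04% of all genes). The medians were -0.08 at the low and 0.83 at the high dose, and the pooled median was 0.13 when high-dose replicate 3 was left out and 0.65 when control replicate 3 was. The complement gene c3a.1 was at 18.1, 9.25, 56.6, 25.7 and 31.8 CPM in controls, 55.7, 29.9, 28.7 and 22.5 CPM at the low dose and 29.1, 78.7 and 88.7 CPM at the high dose. High-dose replicates 2 and 3 were highest and control replicate 2 lowest, while control replicate 3 exceeded high-dose replicate 1 and every low-dose library. The log2 fold change of c3a.1 was 0.75 (SE 0.42), that of itih3a 0.71 (SE 0.36), that of itih2 0.80 (SE 0.47) and that of ambp 0.96 (SE 0.54). The latter 3 encode parts of the inter-alpha-trypsin inhibitor family of plasma. Without control replicate 3 c3a.1 was at 1.17 and ambp at 1.55, and without high-dose replicate 3 ambp was at 0.60.

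Skeletal muscle genes had 31 of 66 measured members above 0 (51.4% of all genes), with 4 higher at an unadjusted p under 0.05 (1.77% of all genes) and 0 lower (1.27%). The median was -0.02, and it was 0.11 by limma, -0.22 without control replicate 2 and 0.17 without control replicate 3. The fast myosin heavy chain gene myhz1.2 was at 1362, 689, 1605, 1460.3 and 1609 CPM in controls, 2090.3, 1983, 3138 and 2791 CPM at the low dose and 1016, 2816 and 1795 CPM at the high dose. High-dose replicate 1 lay within the control range and the other 6 exposed libraries above it. Exposed against control, myhz1.2 was at 0.73 on the log2 scale (SE 0.27), myhz2 at 0.63 (SE 0.27) and myhc4 at 1.43 (SE 0.62). Without low-dose replicate 4 myhc4 was at 0.45. The fast troponin gene tnni2a.1 was at 0.996 (SE 0.35), with 0.51 at the low and 1.47 at the high dose. For tnni2a.1, 3 of 7 exposed libraries lay above every control, and its value was 0.68 without high-dose replicate 3. Myosin heavy chain copies are nearly alike, so reads may be divided among them. Heart muscle genes (16 measured) had a median of 0.21, or 0.06 when low-dose replicate 4 and 0.35 when control replicate 5 was left out. In this list 1 member had an unadjusted p under 0.05 (3.04% of all genes). It was the cardiac light chain gene myl7, at 0.95 (SE 0.42). The cardiac transcription factor gene nkx2.5 was at 0.80 (SE 0.39), the light chain gene cmlc1 at 0.53 (SE 0.51) and the alpha-actinin gene actn2b at 0.64 (SE 0.56). The value of cmlc1 was 1.12 without control replicate 3, 0.29 without control replicate 1 and 0.14 without high-dose replicate 3. For actn2b it was 1.41 without control replicate 2, 0.39 without control replicate 3 and 0.26 without low-dose replicate 4.

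**Figure D4:**
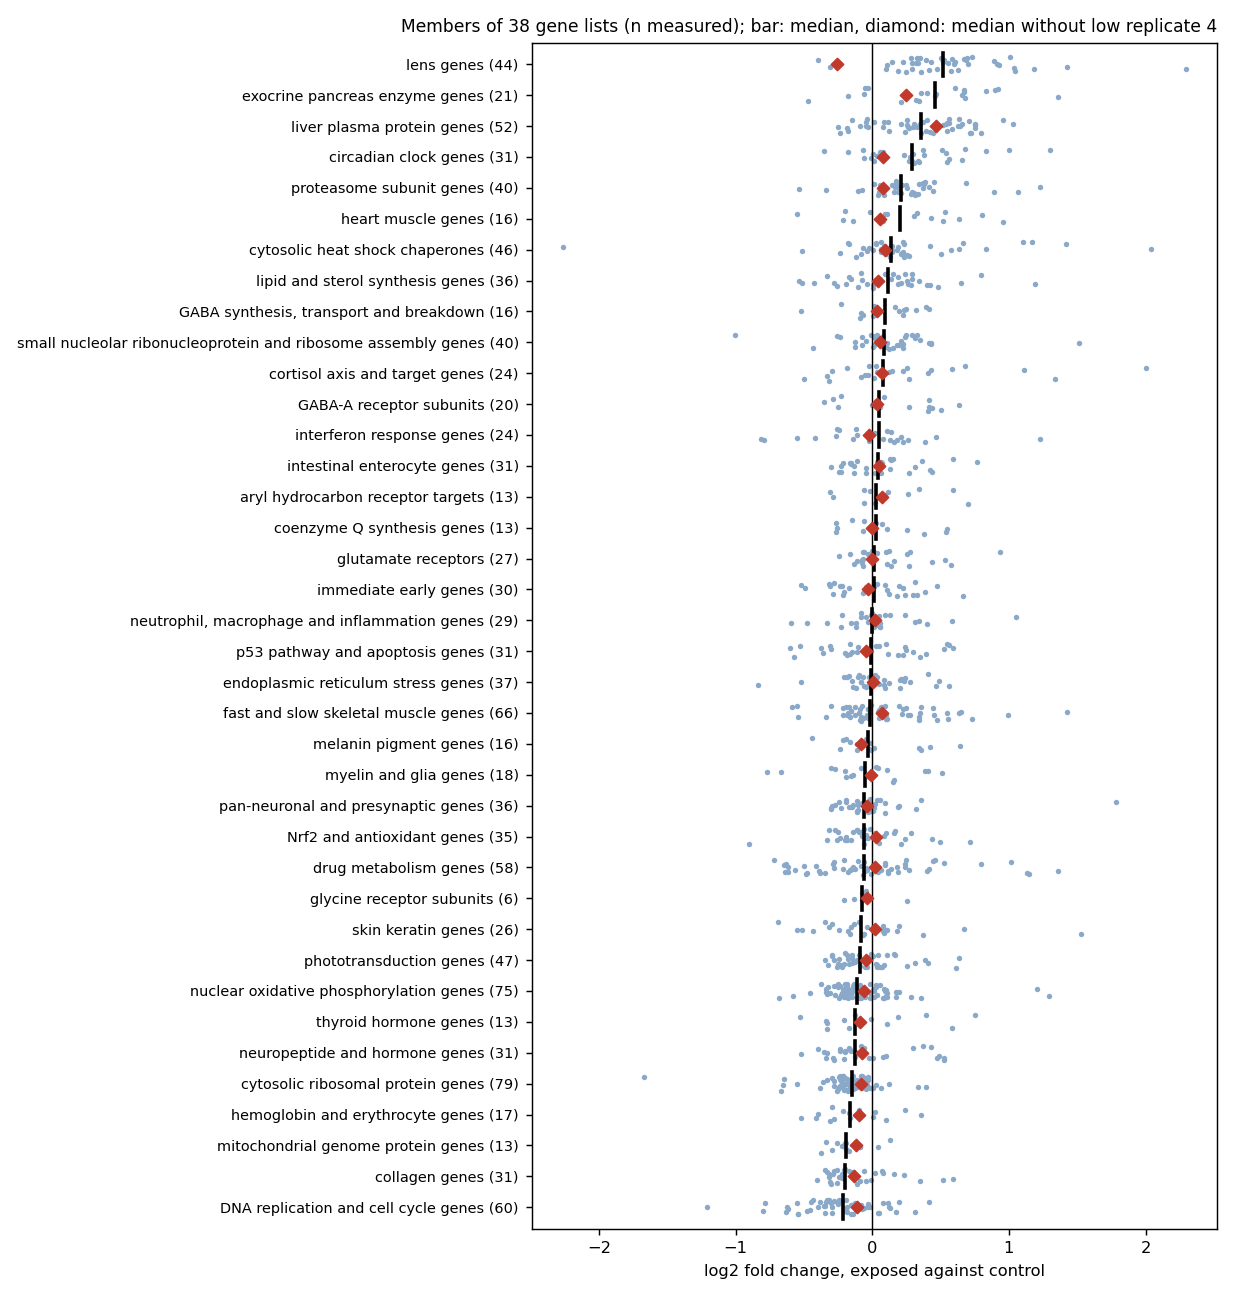
Log2 fold change of exposed against control libraries for the members of 38 gene lists (points; 3 GABA-A subunits are not drawn), with the list median over all members as a black bar and the median without low-dose replicate 4 as a red diamond. The largest median, 0.52 for lens genes, becomes -0.26 without that library, and the lowest is -0.21 for cell cycle genes.

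Circadian clock genes had 26 of 31 measured members above 0 (51.4% of all genes) and 4 higher at an unadjusted p under 0.05 (1.77% of all genes). Their median was 0.29, and it became 0.08 when low-dose replicate 4 and 0.44 when control replicate 2 was left out. By dose the medians were 0.41 at the low and 0.03 at the high dose. The members with the smallest p were ciartb at 0.84 (SE 0.33), nr1d4a at 1.299 (SE 0.51), nfil3-6 at 0.56 (SE 0.24) and tefb at 0.66 (SE 0.31), all transcriptional regulators within or under the clock. The level of ciartb was 10.4, 9.47, 4.49, 6.29 and 6.64 CPM in controls, 11.5, 5.93, 9.96 and 27.96 CPM at the low dose and 11.7, 11.9 and 14.3 CPM at the high dose. The high-dose libraries and low-dose replicates 1 and 4 were above every control, and without replicate 4 the value for ciartb was 0.54 and that for tefb 0.34. The sources used here give no time of day of sampling.

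Genes of the cortisol axis had a median of 0.08 over 24 measured members, which turned to -0.005 without control replicate 3, with 1 at an unadjusted p under 0.05 (3.04% of all genes). That was the mineralocorticoid receptor gene nr3c2, at 0.812, 0.427, 0.522, 0 and 0.0651 CPM in controls, 2.397, 0.279, 0.193 and 2.79 CPM at the low dose and 1.46, 1.74 and 1.54 CPM at the high dose. Low-dose replicates 2 and 3 were within the control range and the other 5 exposed libraries above it, all at few reads. For nr3c2 this was a log2 fold change of 2.01 (SE 0.80). The cortisol-degrading enzyme gene hsd20b2 was at 1.33 (SE 0.67), and the cortisol-responsive genes klf9 and per1a were at 0.59 (SE 0.32) and 0.68 (SE 0.38). Without low-dose replicate 4 the values of hsd20b2, klf9 and per1a were 0.39, 0.25 and 0.20.

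Drug metabolism genes had 25 of 58 measured members above 0 (51.4% of all genes), with 2 higher (1.77%) and 2 lower (1.27%) at an unadjusted p under 0.05. The median was -0.06, and it turned to 0.03 by limma and to 0.02 without control replicate 3. The glucuronosyltransferase gene ugt2a7 was at 0.738, 0.214, 1.15, 1.46 and 0.521 CPM in controls, 3.44, 2.51, 2.61 and 2.68 CPM at the low dose and 0.265, 1.22 and 1.78 CPM at the high dose. All 4 low-dose libraries were above every control, whereas high-dose replicates 1 and 2 were within the control range. The log2 fold change of ugt2a7 was 1.36 (SE 0.59), with 1.79 at the low and 0.42 at the high dose. The glutathione transferase gene mgst1.2 was at 1.13 (SE 0.52). The sulfotransferase gene sult1st6 was at -0.62 (SE 0.26) and the cytochrome P450 gene cyp2ad3 at -0.28 (SE 0.13). Aryl hydrocarbon receptor targets (13 measured) had a median of 0.03 and 0 members at an unadjusted p under 0.05 (3.04% of all genes).

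In the other lists the medians lay between -0.20 (collagen genes, 31 measured) and 0.12 (lipid and sterol synthesis genes, 36 measured). Of these, the lists of endoplasmic reticulum stress (37 measured, median -0.01), p53 and apoptosis (31 measured, -0.01), Nrf2 and antioxidant genes (35 measured, -0.06) and inflammation (29 measured, -0.0018) lay near the median of all genes, 0.01. Interferon response genes (24 measured) had a median of 0.05 and 2 members lower at an unadjusted p under 0.05 (1.27% of all genes). With 1 library left out, the medians of 25 of the 38 lists turned sign. By edgeR no list had a member past the adjusted threshold.

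**Figure D5:**
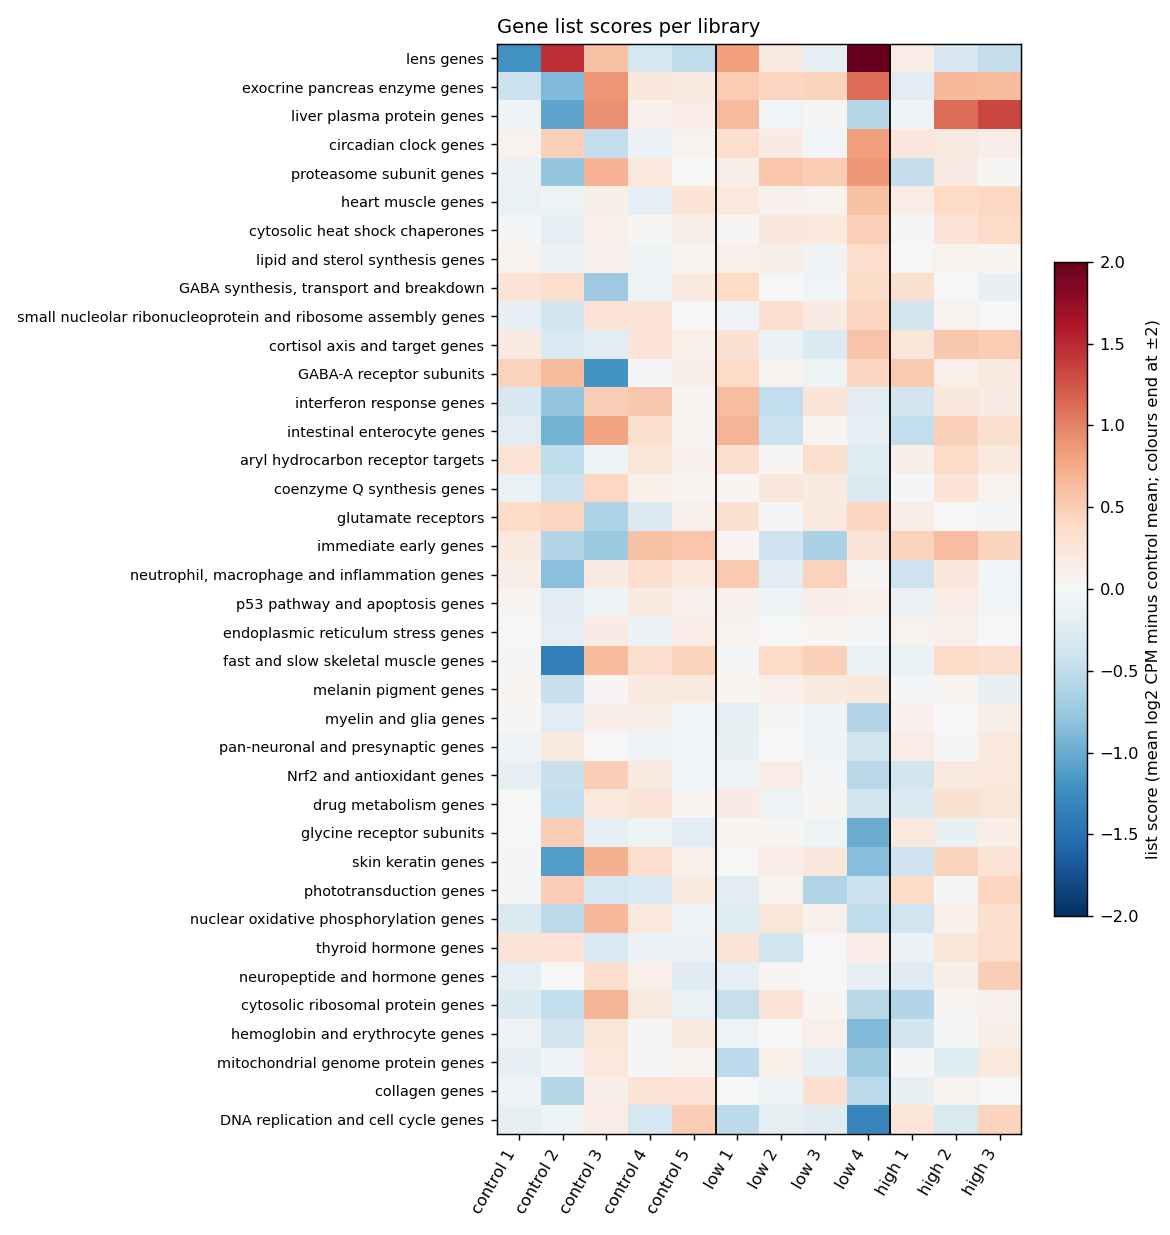
Score of each of 38 gene lists (mean log2 CPM minus the mean of the controls) in each of the 12 libraries, with colours ending at -2 and 2 and vertical lines between control, low-dose and high-dose libraries. The largest scores are 2.67 for lens genes in low-dose replicate 4, 1.48 for lens genes in control replicate 2, -1.37 for skeletal muscle genes in control replicate 2 and 1.34 for liver genes in high-dose replicate 3.

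The genes whose log2 CPM over the 12 libraries was most like that of rps15 were cplx4c (Pearson r 0.900), vac14 (0.843), a scaffold gene of the complex that makes an endosomal phosphoinositide, and cmtr2 (0.828), which encodes an mRNA cap methyltransferase. Their log2 fold changes were -0.55, -0.22 and -0.39, each with 6 of 7 exposed libraries below every control. For hsp90aa1.2 the most alike were smc1al (0.920), a cohesin subunit gene, adgrb1b (0.906), an adhesion receptor gene, and zgc:122979 (0.888). The level of smc1al was 74.4, 77.5, 79.8, 78.98 and 78.1 CPM in controls, 83.3, 83.5, 85.6 and 82.3 CPM at the low dose and 98.1, 98.1 and 108 CPM at the high dose. All 7 exposed libraries were above all controls and the high-dose libraries were highest, at a pooled log2 fold change of 0.23 (SE 0.11). Those of adgrb1b and zgc:122979 were 0.26 and 0.49, with -0.04 and -0.01 at the low and 0.59 and 0.97 at the high dose. These correlations describe 12 libraries that share their depth scaling and include both groups, and the genes were picked as the highest of all those tested.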

How the data were processed

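For the 12 libraries, poly(A) RNA of larvae was prepared with a directional kit after TRIzol extraction, per the labels' protocols. The submitters' processing notes name GRCz11 as the build and fastp, HISAT2, DESeq2 and featureCounts as tools, without versions. No source used here says that counting used strand, so overlapping antisense genes may share reads.

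The deposited tables, 1 per dose with the same controls, hold whole-number read counts per Ensembl gene, per the file headers. They also hold FPKM values of the authors, used here only for levels between genes, and a normalized signal that equals the count over 1 size factor per library, checked in the deposited values and not used. The authors' log2 fold change and p-value for each dose are quoted only as the authors' deposited table.

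Counts of the 25004 genes in both tables were joined, and those averaging at least 10 counts were fitted with edgeR 4.0.16 (R 4.3.3) by quasi-likelihood, with TMM scaling and the prior count at 0.125. Exposed against control used 2 groups; dose contrasts used 3 groups in 1 fit. The threshold was a Benjamini-Hochberg adjusted p under 0.05 over all 18786 genes. Standard errors are the log2 fold change over the square root of F, and intervals are 95%. The biological coefficient of variation was 37.5% and the median interval reached 0.58 to either side on the log2 scale. Log2 CPM for scores, components and correlations had a prior count of 1. CPM values are listed in replicate order.

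Alternatives were DESeq2 1.42.0, limma 3.58.1 with sample quality weights, DESeq2 size factors, no filter, a mean count of at least 50, prior counts of 0.5 and 5, equal weight per dose, an ordered dose score, a block for the replicate number, leaving out each library, and leaving out 3 libraries together. The fit was tested on simulated data with known changes. It recovered 26.8% of 2-fold and 83.2% of 4-fold changes, and 6.25% of its calls were false. Most simulated 2-fold changes were thus missed at this threshold. Counts were drawn independently for each gene in 1 run, without the shifts that many genes share within a library. These rates may therefore not carry over to the real libraries.

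The comparison, the 38 gene lists and the named genes were chosen with earlier results of these data known. Named were up to 12 genes in each direction with the smallest p (standard symbol, mean count of at least 50), the 4 members with the smallest p of 18 lists, GABA-A receptor subunits, genes past 0.05 in the authors' deposited tables, and the 3 genes most alike to rps15 and to hsp90aa1.2. Values of 3 GABA-A subunits and of 1 gene among those with the smallest p are not reported here, although counts include them. Lists are described by counts and medians with no test.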

Additional observations from a re-analysis of the deposited data

Results flagged for a closer look

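In 38 of 310 groups of libraries checked (5 controls or 7 exposed, per named gene, list score or library measure), the highest or lowest library stood apart from its group by Dixon's criterion. Chance flags about 1 in 20 groups where values are independent and normally distributed. Here most values were CPM without a log, the 7 exposed libraries mixed 2 doses, and selected genes shared the same libraries. The 2 rates are therefore not directly comparable. Low-dose replicate 4 was the library in 25 cases, control replicate 2 in 5, control replicate 3 in 3, low-dose replicate 2 and high-dose replicate 3 in 2 each, and control replicate 5 in 1.

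Low-dose replicate 4 was the highest exposed library for the lens genes crybgx (107 CPM), cryaa (29.1 CPM), crygmx (325 CPM) and crygm2d12 (60.27 CPM), with a lens score of 2.67. For digestive enzyme and muscle genes it was highest in amy2a (248 CPM), cpb1 (71.0 CPM) and myhc4 (246 CPM). Among clock and cortisol-responsive genes it was highest for ciartb (28.0 CPM), nr1d4a (13.2 CPM), tefb (331 CPM), per1a (197 CPM), klf9 (282 CPM) and hsd20b2 (11.6 CPM), with a circadian score of 0.84. It was also highest for hsp70.3 (17.9 CPM), ECPAS (30.6 CPM), atf3 (42.0 CPM), syn2b (123.9 CPM), gabrd (75.9 CPM), gabrr1 (55.0 CPM), gabbr2 (17.5 CPM) and si:ch211-236p5.3 (44.8 CPM). It was the lowest exposed library for slc39a13 (4.46 CPM) and for the score of glycine receptor subunits (-0.99).

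Control replicate 2 was the lowest control for myhz1.2 (689 CPM), for the score of neutrophil, macrophage and inflammation genes (-0.83) and for that of melanin pigment genes (-0.44), and the highest for actn2b (18.9 CPM) and gabrr2a (33.0 CPM). Control replicate 3 was the lowest control for tmem8a (2.92 CPM) and the highest for itih3a (7.83 CPM) and mt-nd3 (1717 CPM). Low-dose replicate 2 was the highest exposed library for katnbl1 (19.2 CPM) and vac14 (22.1 CPM), and high-dose replicate 3 for tnni2a.1 (22.2 CPM) and cmlc1 (12.9 CPM). Control replicate 5 had the most counts of the controls, 15491749.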

How the results depend on the processing

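The count of genes past the threshold for any exposure was 0 by edgeR under every setting with all libraries or 1 left out. It was 1 (lower, rps15) with DESeq2, with limma, and with control replicates 2 and 3 and low-dose replicate 4 left out. Control replicates 2 and 3 held the lowest rps15 levels of the controls. High against low dose gave 0 except 2 (higher) with limma. At an unadjusted p under 0.05 the count for any exposure was 572, with 1144 when no filter was used (25004 genes tested) and 405 to 888 with 1 library left out. The cause of these changes was not tested. Under each of 22 alternatives 95 of 112 named genes kept their sign, and 58 moved by more than 1.5 times or turned sign with 1 library left out, most often low-dose replicate 4 (36 genes) and control replicate 3 (29 genes). The medians of 25 of 38 lists turned sign with 1 library left out, 14 of them without control replicate 3, and 15 did without the 3 libraries that stood apart, 9 by limma and 7 with the replicate block. Depth limits the low genes: with a mean count of 10 to 50 the median interval reached 1.08 to either side.

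With the replicate number as a block (replicate block) the unadjusted count was 1067 and 0 genes passed, and gabrp was at -0.22. The numbers share no stated source. Deviations of the 10 same-number pairs correlated at -0.258 to 0.260 (median 0.056), with 4 over 0.1. Those of the 37 different-number pairs correlated at -0.331 to 0.308 (median -0.014), with 8 over 0.1. Of 11 libraries, 5 correlated best with their own number. No test of pairing was run.

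Values of named genes that turned sign were the following, the cause not tested. Without the 3 libraries klf9 was at -0.11, fosb -0.15, gng3 0.053, atf3 -0.10, stmn2b 0.0078, gabbr2 -0.10, gabrb4 -0.13, gabra6b -0.24, gabrr3a -0.052, gabrr1 -0.10 and gabra5 -0.075. By limma gabra6b was at -0.16, gabrr3a -0.060, gabrr1 -0.10 and gabra5 -0.085. With equal weight per dose gabrr3b was at -0.017. With 1 library left out the range was -0.32 to 1.87 for crygm2d12, -0.39 to 0.016 for gabra6a, -0.081 to 0.78 for gabrp, -0.55 to 0.019 for si:ch211-236p5.3, -0.14 to 0.24 for gabra6b, -0.11 to 0.47 for gabrr2a, -0.19 to 0.33 for gabrr3a, -0.18 to 0.31 for gabrr1, -0.21 to 0.20 for gabra5 and -0.16 to 0.34 for gabrr3b.

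Of lists whose medians turned sign with 1 library left out and whose range is not given above, the medians ran from -0.05 to 0.07 for endoplasmic reticulum stress, -0.004 to 0.20 for small nucleolar ribonucleoprotein, -0.14 to 0.15 for coenzyme Q, -0.03 to 0.14 for aryl hydrocarbon receptor target, -0.18 to 0.10 for antioxidant, -0.16 to 0.26 for enterocyte, -0.01 to 0.13 for lipid synthesis, -0.31 to 0.16 for keratin, -0.09 to 0.08 for inflammation, -0.13 to 0.16 for interferon, -0.18 to 0.10 for thyroid hormone and -0.17 to 0.01 for melanin genes.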
